A study of Mus musculus with 6 samples.

Results

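Aldh3a1, Gcat, Pla2g4b and mt-Co2 are 4 of the 196 genes in the deposited table of testis RNA levels. They were taken by gene name because each name is that of an enzyme of small-molecule or energy metabolism. The row named Gcat belongs to a second gene of that symbol, described below. All 4 names matched exactly 1 row. The study instilled antimony trioxide nanoparticles (Nano-Sb2O3) in normal saline into the nose of young C57BL/6 mice and gave control mice the saline alone. Testis RNA of the high-dose group and of the controls was sequenced, with 1 library for each of 3 mice per group. The question was which testis mRNAs differed after the exposure. The T group holds 3 libraries (T1, T2 and T3) and the CON group 3 libraries (CON1, CON2 and CON3), grouped by library name and by the table's mean columns headed T and CON. The mice in both groups carried no genetic change that the sources mention. Whole testis was used, so fewer cells of a type and less RNA per cell cannot be told apart.

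The sample titles contradict this grouping. They name the con libraries as high-dose Sb2O3 mice and the other libraries as control mice. The values are therefore given for T libraries and CON libraries, with no statement of which mice were exposed. If T stands for treated, as the headings read, "higher in T" means higher after exposure, and every direction below turns around if the titles are right.

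The table holds only genes that its authors had already picked for a difference between these groups. In the file itself, all 196 rows passed both an unadjusted p of 0.05 and a log2 fold change of 1 in either direction in the authors' own columns. A difference between the groups is thus built into every row, and the tests below describe the size and spread of the differences rather than giving independent evidence of them. Values were taken as TPM (transcript abundances scaled so that each library has the same total). Paper figures name that unit, but the paper's methods name FPKM. TPM are scaled for gene length and library total, so levels can be set beside each other across genes. TPM keeps no read counts, so the depth behind each value is unknown and no counting interval can be given. The 196 rows summed to between 1347 and 1776 TPM in the CON libraries and to between 880 and 1253 TPM in the T libraries. Defining markers of germ cells (0 of 10), Sertoli cells (0 of 7), Leydig cells (0 of 7) and macrophages (0 of 7) were not rows of the table, so the labelled tissue could not be checked here.

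The 4 enzymes act in separate pathways. ALDH3A1 is an aldehyde dehydrogenase that oxidises aldehydes, among them those formed when membrane lipids are peroxidised, to carboxylic acids, and it is best known for its abundance in the cornea and stomach. GCAT, glycine C-acetyltransferase, works in mitochondria in the breakdown of threonine and links its product to glycine and acetyl-CoA. PLA2G4B is a cytosolic phospholipase A2 that cleaves fatty acids from membrane phospholipids. mt-Co2, a gene of the mitochondrial genome, encodes subunit II of cytochrome c oxidase, the subunit that takes up electrons from cytochrome c at the end of the respiratory chain. In the testis, germ cells in meiosis and beyond depend heavily on mitochondria, and lipid peroxidation is a recognised hazard to sperm membranes.

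GRCm39, the build in the submitters' notes, was used with GENCODE vM39 gene models to see what each row measured. The annotation may be a later release than the one the authors counted with. Aldh3a1 (ENSMUSG00000019102) lies at chr11:61098363-61109247 on the plus strand. It has 8 annotated transcripts covering 2360 exonic bases, none of which is shared with another gene.

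The row named Gcat was not the usual Gcat gene. Its identifier, ENSMUSG00000116378, belongs to a second gene of that symbol at chr15:78915101-78926731 on the plus strand, which the annotation tags as a readthrough gene, meaning that its transcript runs from one gene into the next. Its only transcript has 9 exons and 1146 coding bases. The first 8 coding exons are those of the Gcat gene proper (ENSMUSG00000006378, chr15:78914708-78922553). The last exon lies beyond that gene, inside Galr3 (chr15:78926085-78929162), which encodes a receptor for the neuropeptide galanin. Of the row's 1736 exonic bases, 1132 (65.2%) are also exonic in the Gcat gene, 363 (20.9%) in Galr3, and 241 (13.9%) in neither. Neither the Gcat gene proper nor Galr3 was a row of the table. The join between exons 8 and 9 is shown because it is what sets the listed gene apart from Gcat. Both sequences begin with the same 30 bases of exon 8 (chr15:78921045-78921074) in lower case, and capitals mark 47 coding bases of exon 9, at chr15:78926128-78926174 in the readthrough gene and at chr15:78921343-78921389 in Gcat.
Gcat readthrough gene: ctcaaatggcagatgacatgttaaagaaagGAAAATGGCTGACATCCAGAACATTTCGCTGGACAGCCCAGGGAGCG
Gcat gene: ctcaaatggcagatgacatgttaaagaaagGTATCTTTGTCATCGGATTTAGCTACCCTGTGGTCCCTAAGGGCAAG
In these transcripts the readthrough gene ends its coding part after those 47 bases, while Gcat reads on into its own final exon. Reads from the shared exons fit both genes, and how they were divided between them depends on the counting program, so the Gcat row is uncertain as a measure of the enzyme's mRNA.

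Pla2g4b (ENSMUSG00000098488) lies at chr2:119863898-119873511 on the plus strand and has 6 transcripts with 5831 exonic bases in all. Of these, 3878 (66.5%) are also exonic in Gm28042 (chr2:119857974-119873514), a readthrough gene that begins in the exons of Jmjd7, which encodes a JmjC-domain hydroxylase, and continues into Pla2g4b. Sptbn5, a spectrin gene on the opposite strand, overlaps 792 of the exonic bases (13.6%), all of them within the part shared with Gm28042, so that 33.5% are exonic in Pla2g4b alone. Neither overlapping gene was a row of the table. The start of the Pla2g4b coding sequence is shown because that is where it parts from Gm28042. Capitals mark the bases that differ in origin, which are the first 33 coding bases of Pla2g4b (chr2:119863979-119863987, then from chr2:119865055) and 30 bases of the Jmjd7 part in Gm28042 (chr2:119862103-119862132). The 47 bases in lower case (chr2:119865079-119865125) are the same in both.
Pla2g4b: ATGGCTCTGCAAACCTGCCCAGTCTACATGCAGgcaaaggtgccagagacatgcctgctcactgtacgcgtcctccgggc
Gm28042: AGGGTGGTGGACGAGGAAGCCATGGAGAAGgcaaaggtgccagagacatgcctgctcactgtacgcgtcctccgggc
From this point 18 coding exons of the longest Pla2g4b transcript have the same bounds in Gm28042, so reads along most of the transcript fit either gene.

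**Figure D1:**
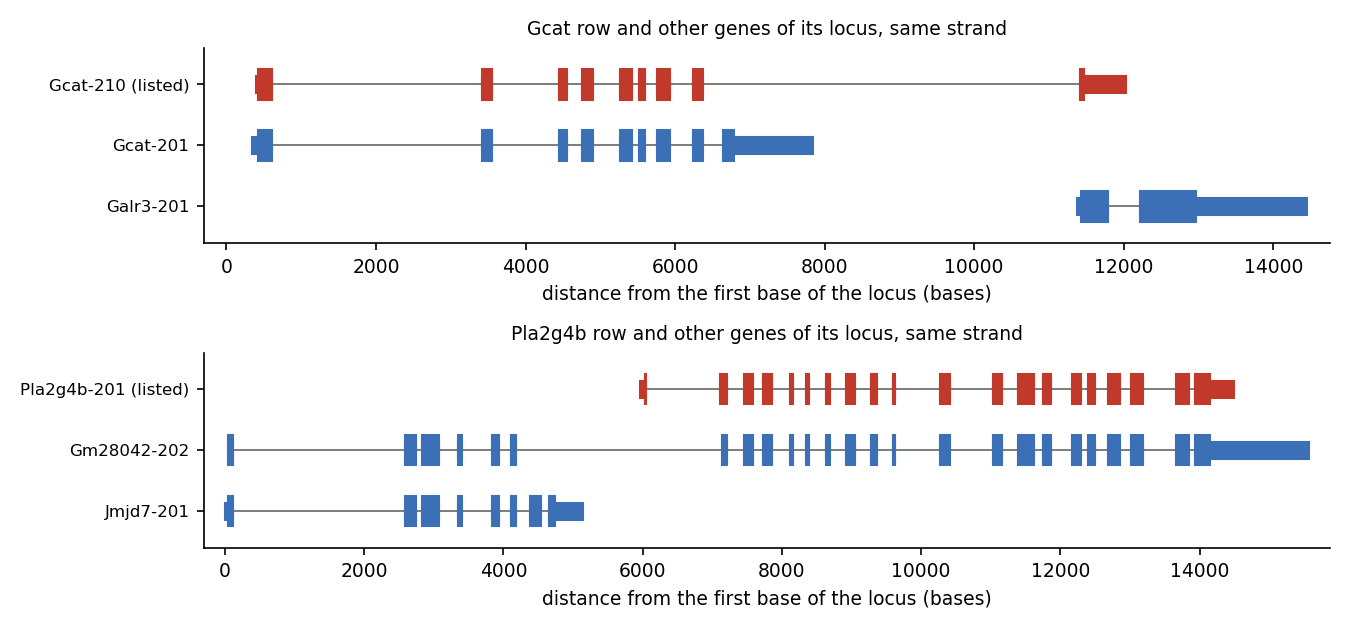
Exon models of the listed Gcat and Pla2g4b genes (red) and of other genes at the same places and on the same strand (blue), with coding parts as tall boxes, noncoding parts as low boxes, and distance in bases along the x axis. The listed Gcat transcript shares its first 8 coding exons with the Gcat gene proper and ends inside Galr3, and most exons of Pla2g4b recur in Gm28042, which starts with those of Jmjd7.

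mt-Co2 (ENSMUSG00000064354) is a single exon of 684 bases at chrM:7013-7696 on the plus strand. The nuclear genome holds an identical full-length copy on chromosome 1 (chr1:24653963-24654646, minus strand, annotated as the pseudogene Gm28661), with 100% identity over 684 bases. A second full-length copy on chromosome 2 (chr2:22477303-22477974, pseudogene Gm13341 within Myo3a) has 95.91% identity, with 16 mismatches and 12 gap bases, and a more diverged one on chromosome 9 (chr9:93056708-93057393) has 78.78%. Such nuclear copies of mitochondrial DNA are common in mammalian genomes. Bases 446 to 545 of mt-Co2 (chrM:7458-7557), the stretch of 100 bases with most differences in the chromosome 2 copy, are shown with the chromosome 1 and 2 copies because they give what a sequencing read could and could not tell apart. Capitals mark the 7 positions at which the chromosome 2 copy (chr2:22477442-22477541) differs, and the chromosome 1 copy (chr1:24654102-24654201) has 0 differences.
mt-Co2: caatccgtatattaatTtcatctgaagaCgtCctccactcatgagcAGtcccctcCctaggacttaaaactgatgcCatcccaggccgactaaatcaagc
chromosome 1 copy: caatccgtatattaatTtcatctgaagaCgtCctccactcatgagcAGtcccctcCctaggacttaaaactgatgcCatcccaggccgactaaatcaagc
chromosome 2 copy: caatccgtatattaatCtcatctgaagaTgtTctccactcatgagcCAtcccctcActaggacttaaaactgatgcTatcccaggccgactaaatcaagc
All 535 windows of 150 bases in mt-Co2 occur again elsewhere in the genome. The corresponding count was 0 of 689 for Aldh3a1, 0 of 555 for Gcat and 0 of 3884 for Pla2g4b. At 50 bases it was 635 of 635 for mt-Co2 and 3 of 5061 for Pla2g4b (0.0593%). A read within mt-Co2 therefore has 2 equally good places, and the share given to each depends on the aligner and counter. Neither Gm28661 nor Gm13341 was a row of the table.

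Aldh3a1 stood higher in every T library than in any CON library, a difference that did not pass the test. Its level was 0.34, 1.56 and 1.83 TPM in CON1, CON2 and CON3 and 4.47, 1.84 and 4.83 TPM in T1, T2 and T3. The lowest T library (T2) stood only just above the highest CON library (CON3). The mean was 1.24 ± 0.794 TPM in CON and 3.71 ± 1.63 TPM in T (SD, n = 3), a ratio of 2.99. The difference of mean log2(TPM + 1), a scale on which changes of low genes come out too small, was 1.07 (95% confidence interval 0.019 to 2.13), with an adjusted p of 0.102 by limma over all 196 rows. A gene was called where limma's adjusted p was under 0.05 and the absolute log2 difference at least 1. By that rule 8 of the 196 rows were called (4.08%), 3 higher and 5 lower in T, and Aldh3a1 was not among them. The exact two-sided permutation test gave p = 0.10, the smallest value that 3 libraries against 3 allow. Any row whose groups do not overlap gets this p, so here and below it only restates that ordering. With a pseudocount of 0.1 the difference was 1.65 and was likewise not called. Every T library lay above every CON library in 40 of the 196 rows (20.4%), so a separation of this kind was common among the listed genes.

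The row named Gcat stood higher in every T library than in any CON library, near the bottom of the scale, and did not pass the test. It was listed at 0 in CON1 and CON3 and at 0.16 TPM in CON2, against 0.25, 2.06 and 0.54 TPM in T1, T2 and T3. T2 held most of the T signal. The mean was 0.0533 ± 0.0924 TPM in CON and 0.950 ± 0.972 TPM in T (SD, n = 3), so the spread within T was as large as its mean. No fold change is given, since 2 of the CON libraries were listed at 0. The difference of mean log2(TPM + 1) was 0.78 (95% confidence interval -0.11 to 1.68), with an adjusted p of 0.120 by limma and p = 0.10 by the exact permutation test. Without T2 the difference was 0.40, and with a pseudocount of 0.1 in place of 1 it was 2.51 (limma adjusted p 0.0745), neither of which was called.

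Pla2g4b was below 1 TPM in every library and lower in every T library than in any CON library, a difference that was not called. Its level was 0.87, 0.85 and 0.24 TPM in CON1, CON2 and CON3 and 0.11, 0.02 and 0.13 TPM in T1, T2 and T3. CON3 stood much nearer to the T libraries than to the other CON libraries. The mean was 0.653 ± 0.358 TPM in CON and 0.0867 ± 0.0586 TPM in T (SD, n = 3), which is 7.54-fold lower in T. The difference of mean log2(TPM + 1) was -0.58 (95% confidence interval -1.09 to -0.07), with an adjusted p of 0.0874 by limma and p = 0.10 by the exact permutation test. The pseudocount of 1 exceeds every value of this gene, and with 0.1 the difference was -1.92 (limma adjusted p 0.0745). Without CON3 the adjusted p was 0.0393 and the difference -0.78, short of the limit of 1 for a call. Every T library lay below every CON library in 83 of the 196 rows (42.3%), so this ordering too was frequent in the table.

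mt-Co2 was lower in every T library than in any CON library, a difference that was not called either. It was listed at 305, 453 and 390 TPM in CON1, CON2 and CON3 and at 233, 97.8 and 194 TPM in T1, T2 and T3. T2 was the lowest of the 6 libraries and CON2 the highest. The mean was 383 ± 74.4 TPM in CON and 175 ± 69.7 TPM in T (SD, n = 3), which is 2.19-fold lower in T. The difference of mean log2(TPM + 1) was -1.20 (95% confidence interval -2.13 to -0.27), with an adjusted p of 0.0794 by limma and p = 0.10 by the exact permutation test. The value moved little with the pseudocount (-1.20 with 0.1), and without T2 it was -0.83. mt-Co2 had the highest mean level of the 196 rows and took between 17.2% and 33.6% of the summed TPM of the table in the CON libraries and between 11.1% and 21.1% in the T libraries. As a part of the whole library it was small, between 0.00978% and 0.0453% of all TPM, a share that holds only if the unit is TPM.

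**Figure D2:**
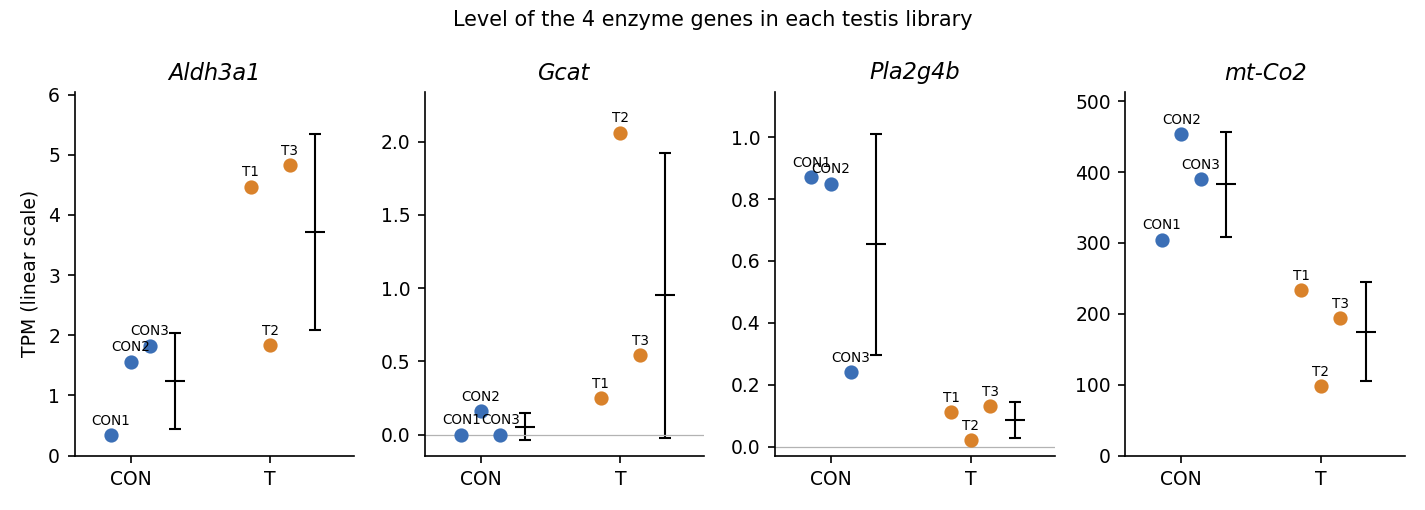
TPM of Aldh3a1, Gcat, Pla2g4b and mt-Co2 in each CON library (blue) and T library (orange), on linear axes that differ between panels, with the group mean and SD (n = 3) as a black bar beside the points. Aldh3a1 and Gcat lie higher in T and Pla2g4b and mt-Co2 lower, with no overlap of the groups, but T2 at 1.84 TPM meets CON3 at 1.83 TPM in Aldh3a1.

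Set side by side per length, the levels spanned a wide range. mt-Co2 stood far above Aldh3a1, Gcat and Pla2g4b in every library. Among these, Aldh3a1 was the highest in CON2 and CON3 and in T1 and T3, Pla2g4b was above it in CON1 (0.87 against 0.34 TPM), and Gcat was above it in T2 (2.06 against 1.84 TPM). In T, Pla2g4b was the lowest of the 4 in every library, while in CON the lowest was Gcat in every library. The order of Aldh3a1, Gcat and Pla2g4b thus differed between libraries of the same group.

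The differences changed when the libraries were rescaled by the listed genes themselves. In the table as deposited, 129 rows had a lower mean log2 level in T and 67 a higher one, with a median difference of -0.54. Scaling the libraries by the median ratio over 104 rows detected in all 6 moved that median by 0.31 to -0.23. The size factors were between 1.31 and 1.49 in CON and between 0.773 and 0.903 in T. They come from genes picked for a difference and can hold part of it, so the values after scaling, with their p-values, are descriptions. Dividing by these factors raises every gene in T against CON, so genes higher in T could only stay higher. Genes lower in T could come closer, overlap or turn higher. After this scaling Aldh3a1 and Gcat still lay higher in every T library, with differences of 1.53 and 0.90 (exact permutation p = 0.10 for each). Pla2g4b then overlapped between the groups, with a difference of -0.39 (exact permutation p = 0.20), and mt-Co2 also overlapped, with -0.41 (exact permutation p = 0.60). Pla2g4b and mt-Co2 were thus separated between the groups in TPM of the whole library, but overlapped when set against the other listed genes. After scaling, every T library was above every CON library in 49 rows and below in 31.

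**Figure D3:**
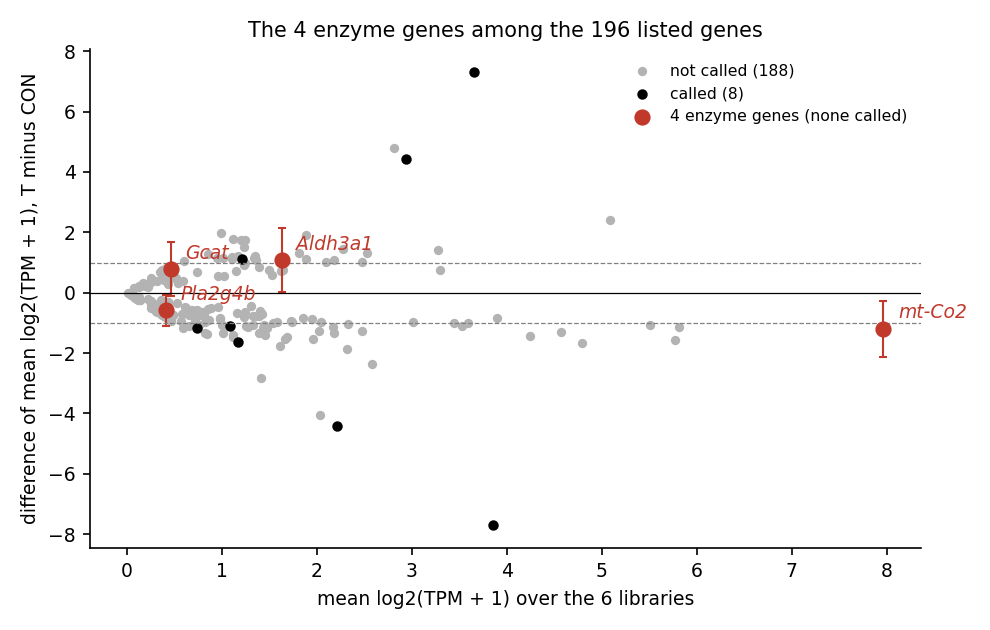
Difference of mean log2(TPM + 1), T minus CON (y axis), against mean log2(TPM + 1) over the 6 libraries (x axis) for the 196 listed genes, with called genes in black, the 4 enzyme genes in red and bars for their 95% confidence intervals. The 4 enzyme genes lie among genes of similar size of difference and none is called, and mt-Co2 is at the far right as the most abundant row.

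**Figure D4:**
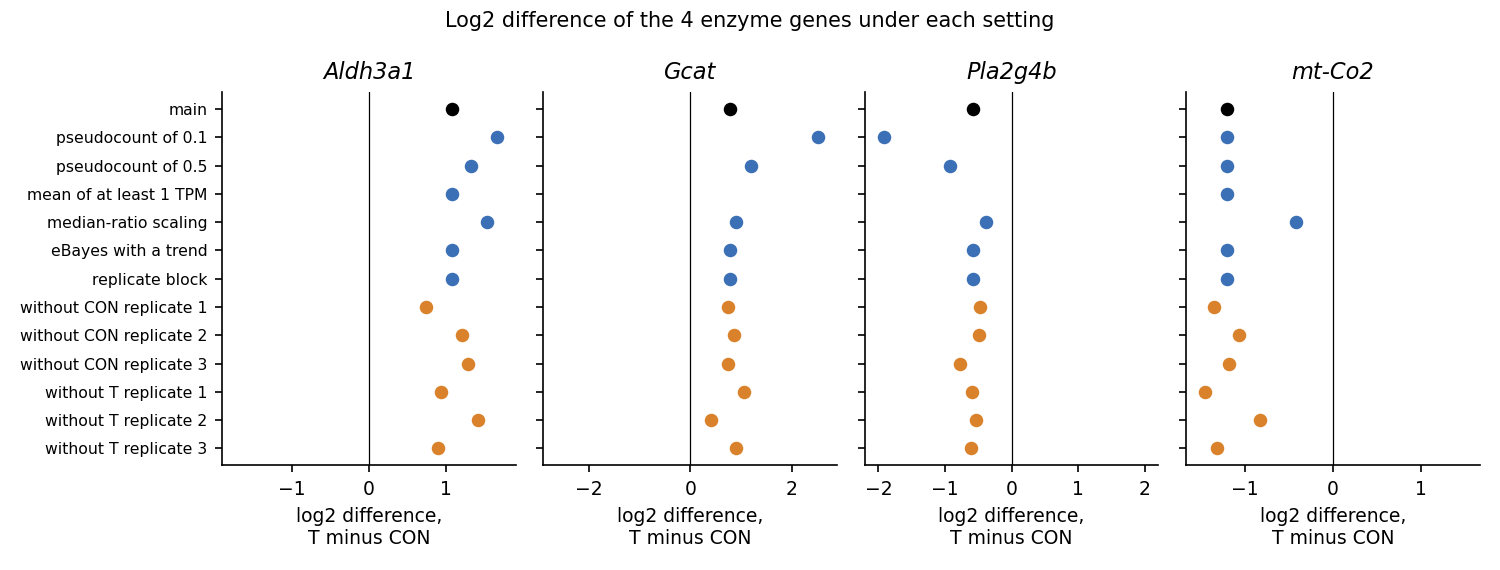
Log2 difference, T minus CON (x axes, which differ between panels), of each enzyme gene under the reported setting (black), under other pseudocounts, filters, scalings and fits (blue) and with each library left out (orange). No point crosses 0, and only median-ratio scaling could have made a point do so, for Pla2g4b or mt-Co2. The low genes Gcat and Pla2g4b move most with the pseudocount (to 2.51 and -1.92 at 0.1), and mt-Co2 moves most with median-ratio scaling (to -0.41). Gcat and Pla2g4b have no point under the filter on a mean of at least 1 TPM, since they do not reach it.

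The other genes of each pathway were mostly not rows of the table, which says only that they were not picked. Of a list of 37 genes of aldehyde and alcohol oxidation, 2 were listed, Aldh3a1 and Cyp2e1, and 0 were called. Cyp2e1, a cytochrome P450 that oxidises ethanol and other small molecules as well as fatty acids, was at 1.59, 0.61 and 0.48 TPM in CON1, CON2 and CON3 and at 0.04, 0.40 and 0.44 TPM in T1, T2 and T3. Its groups did not overlap, in the direction opposite to Aldh3a1, and the log2 difference of -0.52 was not called (limma adjusted p 0.146). Of 34 genes of glycine, serine and threonine metabolism only the Gcat row was listed. Of 49 phospholipases only Pla2g4b was listed, and of 42 enzymes that make mediators from fatty acids only Cyp2e1.

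For the respiratory chain, mt-Co2 was the only listed gene of the 15 genes of the mitochondrial genome in the list. The other subunits encoded there, such as mt-Co1 and mt-Co3, were not rows of the table, so whether they moved with mt-Co2 was not analysed here. None of 34 nuclear genes for cytochrome c oxidase subunits and assembly factors was listed.

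Markers of fat cells, which surround the testis and its cord, stood lower in the T libraries, as Pla2g4b and mt-Co2 did. Of 10 markers 4 were listed (Car3, Cfd, Cyp2e1 and Fabp4), and all 4 were lower in every T library than in any CON library, an ordering that 42.3% of all rows had, with none called. Their summed level was 17.12, 5.39 and 8.47 TPM in CON1, CON2 and CON3 and 0.44, 4.22 and 2.41 TPM in T1, T2 and T3. CON1 was highest and T1 lowest in this sum. CON1 was also the highest library for Pla2g4b, while CON2 was the highest for mt-Co2 and T2 the lowest for both. All 4 markers overlapped between the groups after median-ratio scaling. The defining markers Adipoq and Lep were not rows of the table, and 0 of 9 markers of the epididymis were listed. The part of fat cells in the levels of the enzyme genes was not tested.

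T2 stood at an end of the T group for all 4 genes, with the highest Gcat, and the lowest Aldh3a1, Pla2g4b and mt-Co2. Across the 6 libraries the log2 levels of Gcat and mt-Co2 ran opposite to each other, with Pearson r = -0.919 over all libraries and -0.844 after each group's mean was removed. The value within groups rests on T2, and within CON the 2 genes did not run opposite, since CON2 had both the only Gcat level above 0 and the highest mt-Co2. For Aldh3a1 and mt-Co2 r was -0.291 over all libraries, yet 0.866 within groups. These 6 points share their libraries and their scaling to library total, and the r values are descriptions.

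The rows whose log2 levels ran most like each enzyme gene were found among the 102 or 103 other rows with a mean of at least 1 TPM, by Pearson r over the 6 libraries. Every row was picked for a difference between the same groups, so high values of r are common by construction. For Aldh3a1 they were H2-Q6, a class I histocompatibility gene (r = 0.935), ENSMUSG00000121445, which the table does not name (0.904), and the olfactory receptor gene Or2ag2b (0.902). H2-Q6 was at 0.71, 3.29 and 2.44 TPM in CON1, CON2 and CON3 and at 6.47, 5.38 and 9.75 TPM in T1, T2 and T3. Like Aldh3a1, it had its lowest level in CON1.

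For the Gcat row they were Gm49388 (r = 0.917), Gm20431 (0.871) and Sts, which encodes steroid sulfatase (0.869). Gm49388 was at 1.47, 1.67 and 1.10 TPM in CON1, CON2 and CON3 and at 1.92, 4.02 and 3.25 TPM in T1, T2 and T3. Gm20431 was listed at 0 in all CON libraries and in T1, and at 7.99 and 5.91 TPM in T2 and T3. Both Gm49388 and Gm20431 are themselves annotated as readthrough genes. In all, 6 of the 196 rows (3.06%) carry that tag, against 230 of 78289 annotated genes (0.294%), and the genes that could have entered the table are not known.

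For Pla2g4b the most alike rows were Gm14632 (r = 0.916), 1810013D15Rik (0.913) and 1700019F05Rik (0.897). Gm14632 had a low CON3 library as well, with 24.31, 20.19 and 7.86 TPM in CON1, CON2 and CON3 and 7.26, 8.72 and 5.06 TPM in T1, T2 and T3. For mt-Co2 they were Gm40348 (r = 0.931), Gm21890 (0.927) and Gm20937 (0.923). Gm40348 was at 10.4, 9.93 and 10.35 TPM in the CON libraries and at 7.44, 3.26 and 4.33 TPM in T1, T2 and T3, and like mt-Co2 it was lowest in T2.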

How the data were processed

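The deposited values were taken as TPM, as the authors made them, for 196 genes in 6 libraries. Paper figures name TPM while its methods name FPKM, and the file header gives no unit. The submitters' notes list fastp, HISAT2, RSEM, DESeq2 and GRCm39, whereas the methods name Trimmomatic and HTSeq, and the strand setting used in counting is not given in the sources used here. The authors' columns of fold changes and p-values were read only to learn how rows had been selected. The T and CON columns equalled the means of their libraries in 196 of 196 rows (tolerance 1e-06).

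Levels were tested as log2(TPM + 1) with limma 3.58.1 in R 4.3.3 over all rows, with Benjamini-Hochberg adjustment, and with exact two-sided permutation tests. The fit was run on simulated data in which most rows did not differ, so that run does not cover rows picked for a difference. Libraries were grouped by name, and each value counts as 1 mouse. The genes named were the 4 members, listed genes of fixed pathway and marker lists, genes overlapping or copying a member, and the 3 rows most like each member. The members and lists were chosen with earlier results of these data known. Copies were found with BLAST 2.17.0, and sequences were read from GRCm39.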

Additional observations from a re-analysis of the deposited data

How the results depend on the processing

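The direction of all 4 enzyme genes was the same under every alternative run. Since the groups of each gene did not overlap in TPM, only median-ratio scaling could have turned a direction, and only for Pla2g4b and mt-Co2. With an unadjusted p under 0.05 in place of the adjusted one, Aldh3a1 (1.07) and mt-Co2 (-1.20) became called. All rows had already passed an unadjusted p and a log2 fold change in the authors' columns, so these calls add no evidence. Leaving out each library in turn gave log2 differences of 0.74 to 1.40 for Aldh3a1, 0.40 to 1.05 for Gcat, -0.78 to -0.48 for Pla2g4b and -1.45 to -0.83 for mt-Co2, with no call. The number of called rows, 8 as reported, was 15 with a pseudocount of 0.1, 22 with 0.5, 5 with a mean of at least 1 TPM, 19 with median-ratio scaling (17 higher and 2 lower) and 50 by unadjusted p, and it was 3 to 35 with each library left out (35 without CON2, 25 without T2, 3 without CON1 and 3 without T3). Rows whose groups did not overlap, 123 as reported, were 64 of the 103 with a mean of at least 1 TPM and 80 after scaling. They were 134 to 150 with each library left out, a step that can only keep or add such rows. The mean filter removes Gcat and Pla2g4b, which then have no value. The titles number the libraries 1 to 3 in both groups, and same-numbered libraries did not deviate together (correlations 0.0445, -0.0255 and 0.0969). These rows were picked for a group difference, so the correlations cannot show whether the mice were paired, and the paper states no pairing. With the replicate number as a block 3 rows were called, and the limma adjusted p was 0.145 for Aldh3a1, 0.133 for Gcat, 0.145 for Pla2g4b and 0.132 for mt-Co2. The labels disagree on which libraries came from exposed mice. The read counts behind the values and the genes left out of the table are unknown.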
